A study of Rattus norvegicus with 6 samples.

Results

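The genes described here are 7 genes that handle organic osmolytes and urea in the kidney medulla, of 17051 genes listed for each rat. They were chosen by name for their known roles, with earlier results of these data known, and comprise the transcription factor Nfat5, the osmolyte transporters Slc6a12, Slc6a6 and Slc5a3, the sorbitol-producing enzyme Akr1b1, and the urea transporters Slc14a1 and Slc14a2. Kidney RNA was sequenced from 6 male Sprague Dawley rats, 1 library per rat. The AL group (rats 61, 71 and 88) ate standard laboratory chow powder freely, and the HD group (rats 64, 67 and 69) received a hyperammonemic diet for a week, that is, chow supplemented with amino acids in the proportions of haemoglobin. The comparison asks how kidney gene expression differed when the amino acid load on the kidney, and with it the production of ammonia, was raised.

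The inner medulla of the kidney is kept hypertonic so that urine can be concentrated, by sodium chloride and by urea that the collecting duct returns to the interstitium. Cells there balance the salt outside by gathering compatible osmolytes, betaine, taurine, myo-inositol and sorbitol, and the transcription factor NFAT5 (also called TonEBP) turns on the genes that take up or make them by binding a sequence called the tonicity-responsive enhancer (TonE). Urea moves down its gradient through UT-A channels of the collecting duct and thin limb, encoded by Slc14a2, and through UT-B of vasa recta endothelium and red cells, encoded by Slc14a1.

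The RNA is labelled as kidney tissue, and the inner medulla was not isolated. Markers of the cortical proximal tubule (Slc34a1, the phosphate carrier, 1365 to 3516 CPM, the normalized read count scaled to library size) and of the thick ascending limb (Umod, uromodulin, 2719 to 4059 CPM) stood above the collecting duct water channel Aqp2 (627 to 846 CPM) in every library. The levels below are therefore averages over the whole sample of tissue, in which fewer cells of a type and less RNA per cell cannot be told apart.

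Total counts per library ran from 12499945 to 30466461. All 7 genes passed the minimum of 30 counts in at least 1 rat that left 11553 genes to test, and their estimated counts ran from 16.0 (Slc14a1 in rat 64) to 5893 (Akr1b1 in rat 88). Markers of other cells differed between the libraries. The summed CPM of 7 podocyte markers was 56.6 to 132 in the AL rats and 197 to 422 in the HD rats, and Nphs1, Wt1 and Ptpro among them passed DESeq2's adjusted threshold, all higher in HD. The summed CPM of 7 endothelial and vasa recta markers was 188, 505 and 507 in the AL rats 61, 71 and 88 and 114, 185 and 372 in the HD rats 64, 67 and 69. That of 10 collecting duct markers was 1685 to 1879 in AL and 1515 to 1902 in HD. None of the markers of these lists was at 0 in every rat, and the part of these differences in the results below was not tested except where a value is given.

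Slc14a2 makes its transcripts from more than 1 start, which matters for reading its counts, so the DNA before both starts is shown first. The rat promoter sequences of RefSeq (build GRCr8) matched 5 of the 7 genes with 6 starts, and Nfat5 and Akr1b1 had no entry. Both Slc14a2 windows cover the 250 bases before a start on the minus strand of chromosome 18. The outer window is chr18:74314547-74314796 and the inner one chr18:73921585-73921834, so the starts lie 392962 bases apart in that build. Capitals mark the letters CCAAT, searched on both strands. They begin at positions -190 and -128 from the outer start and occur nowhere in the inner window. Of the 6 windows 3 hold them, including those of Slc5a3 and Slc6a12, as do 11385 of 33469 rat promoter windows of this length.
Slc14a2 outer start: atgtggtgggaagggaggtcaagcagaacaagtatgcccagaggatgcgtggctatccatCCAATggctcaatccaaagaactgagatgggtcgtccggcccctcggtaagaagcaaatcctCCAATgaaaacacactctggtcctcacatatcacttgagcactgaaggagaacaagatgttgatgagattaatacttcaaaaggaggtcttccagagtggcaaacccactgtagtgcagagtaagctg
Slc14a2 inner start: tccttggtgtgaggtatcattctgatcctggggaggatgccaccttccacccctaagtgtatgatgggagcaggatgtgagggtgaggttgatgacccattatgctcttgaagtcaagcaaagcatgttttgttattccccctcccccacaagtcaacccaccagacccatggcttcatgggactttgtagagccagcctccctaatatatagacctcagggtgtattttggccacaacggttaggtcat

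The TonE consensus, to which NFAT5 binds, was searched on both strands in the same 6 windows. It matched in that of Slc6a6 alone (chr4:125752252-125752501, plus strand), on the opposite strand at positions -161 to -151 from the start, marked in capitals. Over all rat windows 5.17% hold such a match. The 6 letters TGGAAA that begin the consensus, which occur in 19.7% of all windows, were likewise found in the Slc6a6 window only, inside that match. A match is no proof of a site, and the absence of one says only that these letters are not in these windows.
Slc6a6 start: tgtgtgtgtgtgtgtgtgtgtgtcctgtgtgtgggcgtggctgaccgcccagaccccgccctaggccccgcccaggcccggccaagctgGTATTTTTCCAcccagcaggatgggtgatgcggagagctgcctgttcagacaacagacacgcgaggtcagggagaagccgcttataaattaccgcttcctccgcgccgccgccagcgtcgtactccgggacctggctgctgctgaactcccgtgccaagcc

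Across the 7 genes the fitted log2 fold change of HD against AL was negative for every gene, with a median of -1.11. Among all 11553 tested genes the median was 0.0067, and 48.7% were below 0. An unadjusted *P* below 0.05 in edgeR's quasi-likelihood test was reached by 5 of the 7 (Nfat5, Akr1b1, Slc5a3, Slc14a2 and Slc6a12), all lower in HD. Of all tested genes, 5.94% reached it and were lower in HD, and 10.6% reached it in either direction. After Benjamini-Hochberg adjustment over all genes edgeR called none of the 7, and it called no gene of the whole table. DESeq2 called 2 of the 7 at an adjusted *P* of 0.05 or less (Nfat5 and Slc5a3), both lower, where 1.58% of all genes were called in either direction and 0.771% were called lower. In 2 genes, Nfat5 and Slc6a12, every HD rat was below every AL rat, which 7.01% of all genes also showed. None of the 7 had every HD rat above every AL rat, as 7.25% of all genes did. With 3 rats against 3, an exact permutation test of a gene cannot give less than *P* = 0.1.

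**Figure D1:**
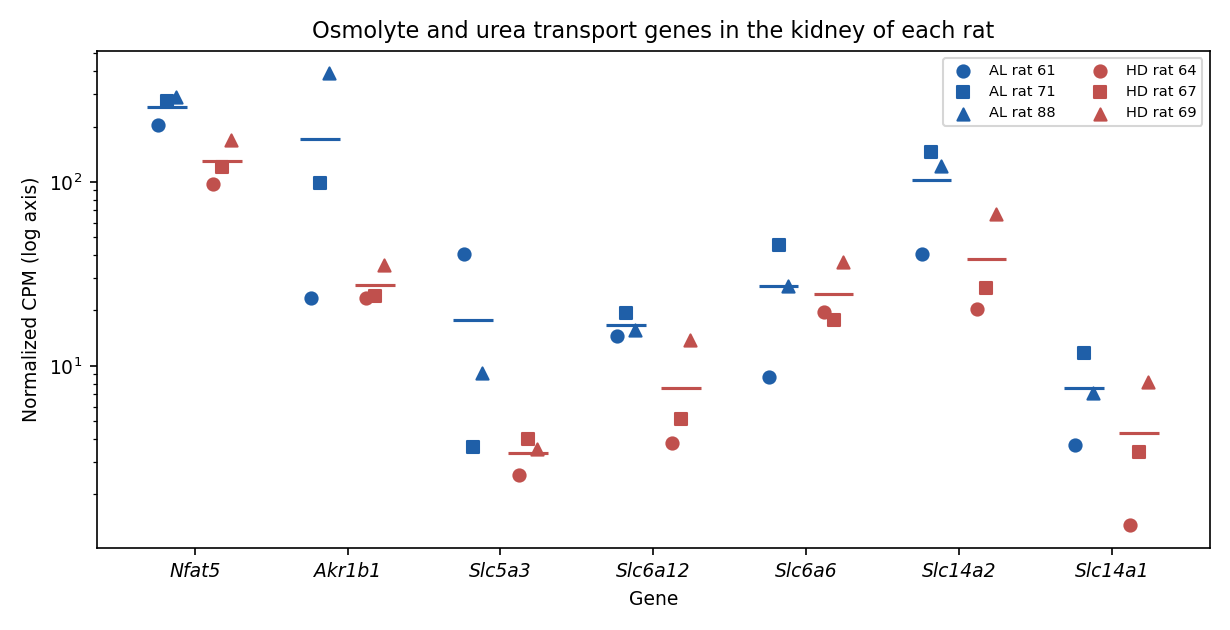
Normalized CPM (log axis) of the 7 genes in each rat, with AL rats in blue, HD rats in red, a symbol for each rat and a horizontal line at the group mean. The groups do not overlap for Nfat5 (203 to 290 against 98.0 to 170) and Slc6a12 (14.5 to 19.4 against 3.82 to 13.7), whereas Akr1b1 and Slc5a3 owe their high AL means to rat 88 (390) and rat 61 (40.3).

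Nfat5 lies on chromosome 19 (rn5, 49315752 to 49403632, minus strand) with 16 exons and a transcript of 13539 nucleotides. Its level was 203, 275 and 290 CPM in the AL rats 61, 71 and 88 and 98.0, 121 and 170 CPM in the HD rats 64, 67 and 69. All HD rats were below all AL rats, and rat 69 was the HD rat nearest to the AL group. The group means were 256 ± 46.5 and 130 ± 36.9 CPM (SD, n = 3 each), a level 1.98-fold higher in AL. The log2 fold change was -0.98 (SE 0.23), with an adjusted *P* of 0.368 in edgeR (unadjusted 0.00314) and of 0.00626 in DESeq2, and the exact permutation test gave the smallest *P* that 3 against 3 rats allow, 0.1. With any 1 rat left out the fold change ran from -1.23 to -0.82 and the unadjusted *P* in edgeR stayed between 0.000566 and 0.0139. Nfat5 was the only one of the 7 genes to keep an unadjusted *P* below 0.05 in all 6 of these fits.

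Slc6a12 encodes the betaine transporter BGT1, a classical target of NFAT5, and lies on chromosome 4 (rn5, 221009224 to 221029242, plus strand, 15 exons). Its level was 14.5, 19.4 and 15.7 CPM in the AL rats 61, 71 and 88 and 3.82, 5.14 and 13.7 CPM in the HD rats 64, 67 and 69. The AL rats lay close together, while rat 69 came near to them and rats 64 and 67 were far below. The fitted level was 2.15-fold higher in AL, with a log2 fold change of -1.11 (SE 0.45) and an adjusted *P* of 0.455 in edgeR and 0.223 in DESeq2. Without rat 69 the log2 fold change was -1.87 (unadjusted *P* 0.000167), and without any other rat the unadjusted *P* was between 0.0604 and 0.120.

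Slc6a6 encodes the taurine transporter, on chromosome 4 (rn5, 188176238 to 188245992, minus strand, 15 exons). Rats 61, 71 and 88 of the AL group had 8.73, 45.3 and 27.3 CPM, and the HD rats 64, 67 and 69 had 19.6, 17.7 and 36.8 CPM. The AL rats enclosed the whole range of the HD rats, and the lowest and the highest rat were both AL. The log2 fold change was -0.13 (SE 0.54, edgeR adjusted *P* 0.965). Its sign turned without rat 71 (0.45), and also, with values near 0, without rat 64 or rat 67. No difference was detectable for this gene, and the spread among the AL rats was 5.19-fold.

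Slc5a3 encodes the sodium/myo-inositol cotransporter SMIT1 in 1 exon on chromosome 11 (rn5, 35834279 to 35836714, plus strand). AL rats 61, 71 and 88 had 40.3, 3.60 and 9.13 CPM, and the HD rats 64, 67 and 69 had 2.54, 3.99 and 3.55 CPM. Rat 61 was far above all others, rat 88 was above the HD rats, and rat 71 lay among them. The log2 fold change was -2.37 (SE 0.81), with an adjusted *P* of 0.406 in edgeR and 0.0363 in DESeq2. Without rat 61 it was -0.90 with an unadjusted *P* of 0.0831, and without rat 64 or rat 69 the unadjusted *P* was 0.0569 or 0.0541. The group means rested on this rat, since the AL rats differed 11.2-fold among themselves and the HD rats 1.57-fold.

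Akr1b1 encodes aldose reductase, which makes sorbitol from glucose, on chromosome 4 (rn5, 61426190 to 61440279, minus strand, 10 exons). It belongs to a family of related genes, and reads that fit several of them are divided by RSEM's estimate. Its level was 23.3, 98.9 and 390 CPM in the AL rats 61, 71 and 88 and 23.3, 24.0 and 35.3 CPM in the HD rats 64, 67 and 69. Rats 71 and 88 were above all HD rats, and rat 61 was at the lower end of the HD range. The fitted difference was the largest of the 7 genes (log2 fold change -2.63, SE 0.87), with an adjusted *P* of 0.406 in edgeR and 0.195 in DESeq2. Without rat 88 it was -1.14 (unadjusted *P* 0.0723), and without rat 64 or rat 67 the unadjusted *P* was 0.0512 or 0.0552. The exact permutation test gave *P* = 0.4 (two-sided).

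**Figure D2:**
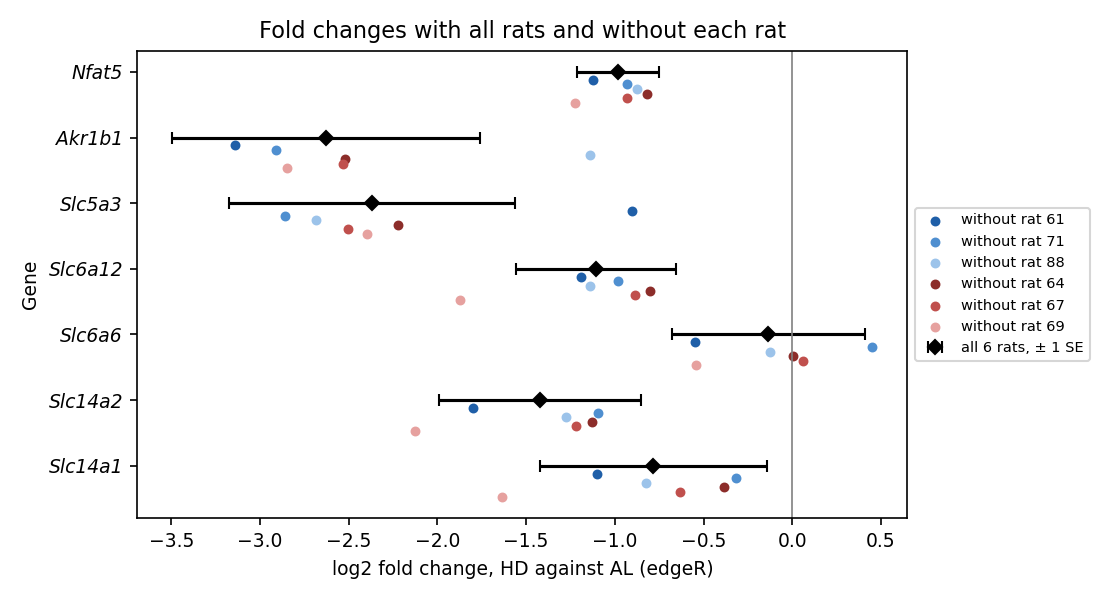
Fitted log2 fold change of HD against AL (edgeR) for each gene with all 6 rats (black diamond, bar ± 1 SE) and after leaving out each rat (coloured points, blue for AL and red for HD rats). Akr1b1 moves from -2.63 to -1.14 without rat 88 and Slc5a3 from -2.37 to -0.90 without rat 61, whereas Nfat5 stays between -1.23 and -0.82.

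Slc14a1 encodes the urea transporter UT-B and lies on chromosome 18 (rn5, 74138605 to 74161831, minus strand, 9 exons), beside Slc14a2. It was the least abundant of the 7 genes per transcript length in the AL group. Levels of 3.73, 11.8 and 7.14 CPM were measured in the AL rats 61, 71 and 88, and of 1.36, 3.40 and 8.15 CPM in the HD rats 64, 67 and 69. The groups overlapped, with rat 69 above 2 of the AL rats. The log2 fold change was -0.78 (SE 0.64), with an adjusted *P* of 0.735 in edgeR and 0.766 in DESeq2, and it ran from -1.64 without rat 69 (unadjusted *P* 0.0317) to -0.32 without rat 71.

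Slc14a2 spans 74185426 to 74617691 of chromosome 18 (rn5, minus strand). Summed over its transcripts, its level was 40.4, 145 and 122 CPM in the AL rats 61, 71 and 88 and 20.3, 26.6 and 67.1 CPM in the HD rats 64, 67 and 69. Rats 64 and 67 were below every AL rat, and rat 69 was above rat 61. The fitted level was 2.68-fold higher in AL (log2 fold change -1.42, SE 0.57), with an adjusted *P* of 0.453 in edgeR and 0.411 in DESeq2. The log2 fold change was -2.12 without rat 69 and -1.09 without rat 71, and the unadjusted *P* of 0.0390 with all rats was above 0.05 without any of rats 64, 67, 71 and 88 (0.0894 to 0.120). The summed endothelial markers given above were likewise lowest in rat 64 and highest in rats 71 and 88, with rat 69 above rat 61. Slc14a1, known from vasa recta endothelium, was also lowest in rat 64, then in rats 67 and 61, but rat 69 was above rat 88. The part of endothelial cells in the counts of either gene was not tested. The endothelial genes themselves were not called. Log2 fold changes were -1.98 (SE 0.64) for Plvap, which forms the diaphragms of fenestrated endothelium, and -0.70 (SE 0.47) for Pecam1 (edgeR adjusted *P* 0.406 and 0.655). Of the 7 markers 6 were below 0, with a median of -0.42. Kdr was above 0 (0.37, SE 0.53) and Cdh5 was at -0.14 (SE 0.45).

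The files list 3 Slc14a2 transcripts, which differ in their start and in their end. UT-A1 (NM_019347, 22 exons, 3836 nucleotides) and UT-A3 (NM_177962, 12 exons, 1844 nucleotides), both collecting duct forms, begin at the outer start and end at 74185426 and 74222746. UT-A2 (NM_001110270, 11 exons, 2921 nucleotides), the form of the thin descending limb, begins at the inner start, 399086 bases away in rn5. UT-A2 has 707 bases of its own and UT-A3 has 222, but UT-A1 has 0, since every base of it also lies in an exon of another form. It shares 11 exons with UT-A3 and 10 with UT-A2, which share 0 with each other, so what sets it apart is that it joins both blocks. The files give RSEM's division of the reads among the forms and not the reads on that junction.

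The share of UT-A1 among the gene's estimated counts was 6.75%, 1.16% and 59.4% in the AL rats 61, 71 and 88 and 71.2%, 48.9% and 1.63% in the HD rats 64, 67 and 69. Each group thus held rats of both kinds, 3 rats with about as many or more UT-A1 than UT-A2 counts and 3 with nearly none. UT-A2 took 92.2%, 96.4% and 36.7% in the AL rats and 23.6%, 48.2% and 96.9% in the HD rats, in the same order. In TPM, the transcript abundance scaled to length and library, UT-A2 was 18.3, 82.7 and 24.7 in AL and 2.41, 6.36 and 35.8 in HD. Rats 64 and 67 were lowest and rat 71 was highest for this form. UT-A1 was 1.02, 0.76 and 30.3 TPM in AL and 5.52, 4.89 and 0.46 TPM in HD, so rat 88 held most of what was assigned to it. The deposited bounds of UT-A1 expression, rescaled here to TPM units, were 27.3 to 33.2 in rat 88. They were 4.10 to 6.64 in rat 64 and 3.81 to 5.97 in rat 67. These lay above the bounds of the other rats, of which the widest were 0.041 to 2.03 in rat 71. UT-A3 was 0.35, 3.37 and 4.23 TPM in AL and 0.87, 0.62 and 0.85 TPM in HD, where rats 71 and 88 stood above the rest. Tested on their own among 12191 transcripts, the forms had log2 fold changes of -1.45 (SE 1.46) for UT-A1, -1.40 (SE 0.93) for UT-A2 and -1.63 (SE 0.74) for UT-A3, with edgeR adjusted *P* of 0.798, 0.670 and 0.528. Without rat 88 the value of UT-A1 was 2.12, the opposite sign. That of UT-A2 was -3.06 without rat 69 (unadjusted *P* 0.00765) and -0.57 without rat 71, and that of UT-A3 ran from -2.12 without rat 61 (unadjusted *P* 0.00113) to -1.10 without rat 88.

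**Figure D3:**
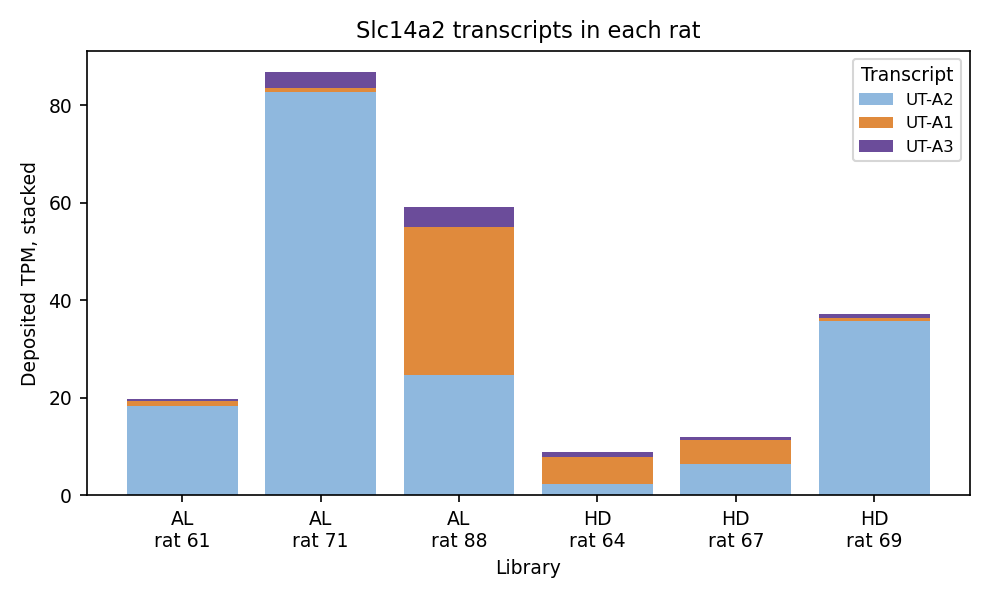
Deposited TPM of the 3 Slc14a2 transcripts in each rat, stacked so that the bar height is the TPM of the gene. UT-A1 makes up a large part of the bar in AL rat 88 and in HD rats 64 and 67 and almost none in the other rats, so the split follows rats and not the diet groups.

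Per transcript length, the genes with the highest and second highest group mean were the same in both groups. Mean TPM in the AL group was 212 ± 238 for Akr1b1, 55.2 ± 33.7 for Slc14a2, 29.9 ± 7.54 for Nfat5, 18.2 ± 13.3 for Slc6a6, 10.8 ± 11.4 for Slc5a3, 10.7 ± 2.59 for Slc6a12 and 9.11 ± 5.53 for Slc14a1 (SD, n = 3). The ranges of all neighbours in this order overlapped, so no step of it was larger than the spread between rats. The HD means were 32.1 ± 9.81 for Akr1b1, 19.3 ± 15.5 for Slc14a2, 15.4 ± 7.48 for Slc6a6, 14.4 ± 4.91 for Nfat5, 4.90 ± 4.22 for Slc14a1, 4.71 ± 3.61 for Slc6a12 and 2.09 ± 0.491 for Slc5a3. The second place of Slc14a2 in HD rested on rat 69 (37.1 TPM). In rat 64 it had 8.80 TPM, below Slc6a6 (11.8) and Nfat5 (10.5). In rat 67 it had 11.9 TPM, below Nfat5 (12.7).

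The spread between rats of 1 group was wide for most of the 7 genes. The SD of log2 CPM in the AL group, with a median of 0.204 over all tested genes, was 2.02 for Akr1b1, 1.68 for Slc5a3, 1.18 for Slc6a6, 0.99 for Slc14a2, 0.77 for Slc14a1, 0.28 for Nfat5 and 0.21 for Slc6a12. Akr1b1 and Slc5a3 varied more among AL rats than 99.8% and 99.6% of tested genes. In the HD group the widest were Slc14a1 (SD 1.11), Slc6a12 (0.90) and Slc14a2 (0.89), all at or above the 97.3 percentile of tested genes, whereas Akr1b1 and Slc5a3 were at 0.33 and 0.29. The rats did not rank alike for all genes. Rat 64 was lowest in 5 of the 7 genes (and in 2432 of all 11553 tested genes), rat 61 was lowest for Slc6a6 and level with rat 64 at the bottom for Akr1b1, and the highest rat was 71 in 4 genes, 88 in 2 and 61 in 1.

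Most of the enzymes that make or break down osmolytes did not share the sign of the 7 genes. Of 14 tested, 11 had a positive log2 fold change, and the median was 0.22. The 3 below 0 included Isyna1 (-0.56, SE 0.25, unadjusted edgeR *P* 0.0603), named after its values were seen. Unadjusted *P* was below 0.05 for 4, all higher in HD, where 4.66% of all genes were higher at that threshold. Sord, sorbitol dehydrogenase, which removes the sorbitol that aldose reductase makes, had 488, 337 and 349 CPM in the AL rats 61, 71 and 88 and 682, 622 and 467 CPM in the HD rats 64, 67 and 69 (log2 fold change 0.59, SE 0.20, edgeR adjusted *P* 0.406). Aldh7a1, which oxidizes betaine aldehyde to betaine, had a log2 fold change of 0.46 (SE 0.16) and Dmgdh, a mitochondrial enzyme of betaine breakdown, of 0.48 (SE 0.18). Csad, an enzyme of taurine synthesis and named after its values were seen, was the fourth (0.65, SE 0.26). No gene of this list was called after adjustment by edgeR or DESeq2.

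Among 9 other osmolyte transporters, 6 were below 0, the median was -0.18, and 1 was higher and 2 lower at an unadjusted *P* below 0.05, against 4.66% and 5.94% of all genes. Slc38a2, the amino acid transporter SNAT2 and a known gene of the tonicity response, had 293, 254 and 324 CPM in the AL rats 61, 71 and 88 and 146, 216 and 146 CPM in the HD rats 64, 67 and 69. The groups did not overlap, and the log2 fold change of -0.78 (SE 0.19) had an adjusted *P* of 0.0128 in DESeq2 and 0.368 in edgeR. The other two were Slc44a1, a choline transporter (-0.45, SE 0.17), and Slc6a20, a proline and betaine carrier (0.53, SE 0.19), both named after their values were seen.

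Among 13 tested genes of the tonicity response list, 10 were below 0 with a median of -0.36. Of these 13 only Gadd45a, a DNA damage and stress gene, had an unadjusted *P* below 0.05, and it was higher in HD (0.66, SE 0.24, edgeR adjusted *P* 0.409). Slc38a2, lower in HD with an unadjusted edgeR *P* of 0.00372, was counted with the transporters above and not in this list. The chaperone Hspa1b had a log2 fold change of -0.81 (SE 0.37), the calcium-binding protein S100a4 of -1.07 (SE 0.52). For S100a4 the groups overlapped, with AL rat 88 highest (48.6 CPM) and AL rat 61 (9.29 CPM) below all HD rats (10.3 to 16.0 CPM). Of 10 tested cofactors and kinases reported to act on NFAT5, 6 were above 0 with a median of 0.03, and the kinase Atm alone had an unadjusted *P* below 0.05 (-0.58, SE 0.17, edgeR adjusted *P* 0.404). Parp1 (0.13, SE 0.10) and Abl1 (-0.14, SE 0.13) were close to 0. The volume-regulated anion channel, through which swollen cells release osmolytes, had 5 tested subunits with a median of 0.12. Its subunit Lrrc8d was at 0.42 (SE 0.11) and Lrrc8e at -0.28 (SE 0.10), with edgeR adjusted *P* of 0.398 and 0.426, and Lrrc8b at 0.24 (SE 0.23). None of the genes of these 3 lists was called by DESeq2.

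**Figure D4:**
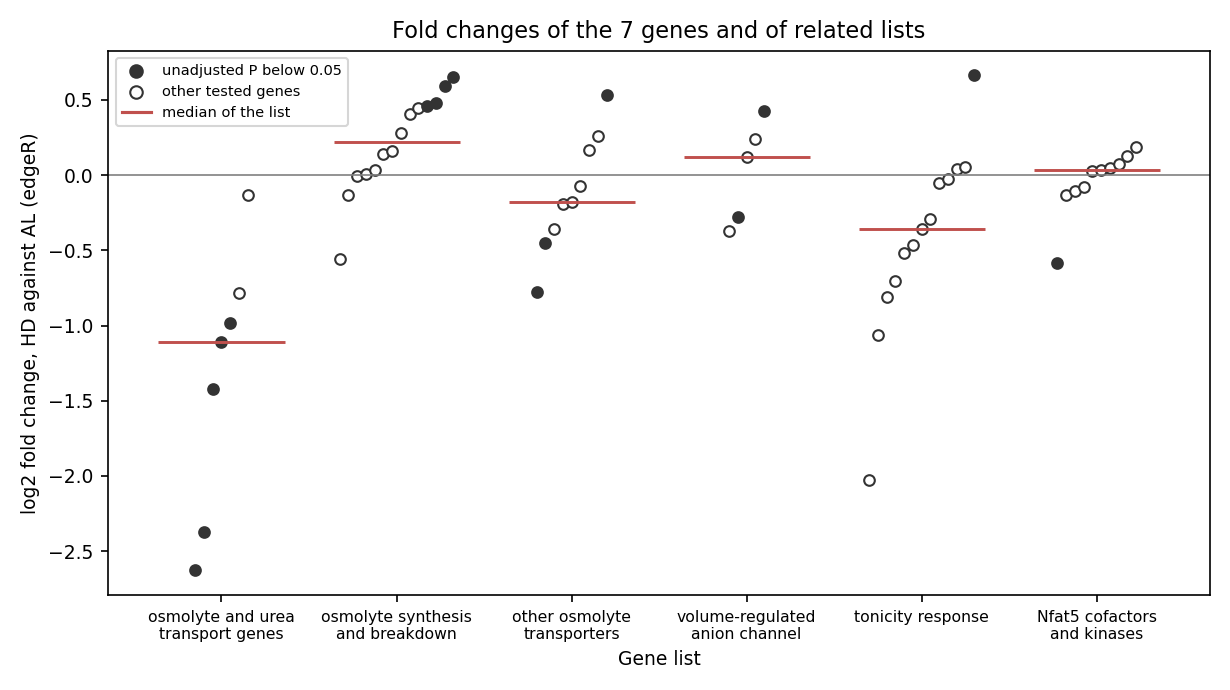
Fitted log2 fold change of HD against AL (edgeR) of each tested gene in 6 lists, filled where the unadjusted P is below 0.05, with the median of each list as a red line. All 7 osmolyte and urea transport genes lie below 0 (median -1.11), while the medians of the other lists lie between -0.36 and 0.22.

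Markers of the segments where these genes are known to act mostly had fitted values below 0. The counts were 7 of 10 (collecting duct), 8 of 9 (thin limb and medulla) and 6 of 6 (thick ascending limb). Those of the cortical proximal tubule were mostly above 0 (5 of 6 tested), and 48.7% of all tested genes were below 0. At an unadjusted *P* below 0.05 in edgeR, 4, 2 and 1 markers of the first 3 lists were lower. Akr1b1, itself 1 of the 7 genes, is among the 8 thin limb and medulla markers below 0 and is 1 of the 2 at that threshold. In the collecting duct list 2 were higher, as were 3 in the cortical proximal tubule list. Of all genes 5.94% were lower and 4.66% higher at that threshold. In the collecting duct list, Aqp4, the basolateral water channel, was lower in HD (118, 150 and 184 against 78.6, 68.4 and 75.7 CPM; log2 fold change -1.02, SE 0.17, DESeq2 adjusted *P* 7.14e-05, edgeR 0.325), as was Fxyd4 (-0.43, SE 0.10, DESeq2 adjusted *P* 0.0153), whereas Hsd11b2, which guards the mineralocorticoid receptor from corticosterone, was higher (0.64, SE 0.16, DESeq2 adjusted *P* 0.0359). Aqp2 had a log2 fold change of -0.05 (SE 0.15). The thin limb and medulla list, which holds Akr1b1 itself, had a median of -0.41 and summed to 4968 to 5617 CPM in AL and 5081 to 5803 CPM in HD. Its exception was Aqp1 (0.22, SE 0.13), which the proximal tubule also expresses. Aqp1 alone had 3788.5 to 3907.2 CPM in AL and 4263.7 to 4750.9 CPM in HD, which is most of these sums. The sums therefore mainly follow Aqp1 and not the 8 markers below 0. The thick ascending limb list, with Slc12a1, the sodium-potassium-chloride cotransporter, at -0.86 (SE 0.31, edgeR adjusted *P* 0.409), summed to 6348 to 7409 CPM in AL and 4410 to 7045 CPM in HD. The cortical proximal tubule list had sums that did not overlap, 3727 to 5259 CPM in AL and 5341 to 7316 CPM in HD. In it the organic anion transporters Slc22a8 (log2 fold change 3.20, SE 0.43) and Slc22a6 (1.07, SE 0.24) were called higher by DESeq2 (adjusted *P* 1.31e-13 and 0.00300) and not by edgeR (0.254 and 0.368). How far the shares of cortex and medulla in the tissue entered the 7 genes was not tested.

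For each gene the genes with the most similar pattern over the 6 rats were sought among 11271 genes, by Pearson's r of log2 CPM. Each r is over the same 6 libraries, which differ in depth and in diet, and is given as a description. Genes with an r of at least 0.95 numbered 180 for Nfat5, 100 for Slc6a12, 52 for Slc6a6, 29 for Slc5a3, 63 for Akr1b1, 163 for Slc14a1 and 310 for Slc14a2. The nearest to Nfat5 were Adamtsl4 (r 0.997) and Pdgfrl (0.996), and to Slc6a12 the thrombin receptor F2r (0.996) and RGD1308428 (0.991). Slc6a6 was nearest to Sdr42e1 (0.996) and Slc9a9 (0.995), and Slc5a3 to the ribosomal protein gene Rps7 (0.988) and Nab2 (0.985), which were likewise highest in rat 61. Akr1b1 was nearest to Hipk1 (0.996) and Tmem200c (0.993), both highest in rat 88. Slc14a1 was nearest to Dchs1 (0.998) and Incenp (0.997), and Slc14a2 to Fli1 (0.999), a transcription factor known from endothelial and blood cells, and Hmcn1 (0.998). None of the 7 genes was among the 2 nearest of another. Only these 2 were kept for each gene, so the likeness of the 7 genes to one another is not described here.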

How the data were processed

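Poly(A)-selected kidney RNA of 6 rats was sequenced single-end, 1 library per rat, and the labelled diet assigned each rat to its group. The authors quantified transcripts with RSEM 1.1.15 against the University of California Santa Cruz gene definitions for rn5, and deposited for each transcript an estimated count without normalization, together with its posterior mean. The authors also deposited TPM, scaled to length and library, with the bounds of an interval around it, a signal whose level is not given in the sources used here. FPKM values were not used.

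Estimated counts were summed per gene and rounded, and genes with at least 30 counts in at least 1 rat were kept. The diet groups were compared with edgeR 4.0.16 (quasi-likelihood test, TMM; R 4.3.3), adjusted by Benjamini-Hochberg over all 11553 genes. DESeq2 1.42.0, which the study used, and limma 3.58.1 on log2(TPM + 0.5) were alternatives, beside other normalizations, count minimums, posterior mean counts and leaving out each rat. The script was tested on simulated data. CPM are TMM-normalized. Nothing in the sources says that libraries shared a batch, and *P* measure the spread between these rats.

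The 7 genes and all lists were chosen with earlier results of these data known. Named from each other list were the genes called by edgeR or DESeq2, otherwise up to 3 with the smallest *P*, and for marker lists the 3 most abundant. Pnpla6, Gdpd5, Ranbp3l and Prkdc of the lists were not analysed here, and some genes of the marker lists are not reported here. Promoter sequences came from RefSeq (GRCr8), without conversion of coordinates between builds. Values of the remaining marker lists (outer stripe, erythroid, urothelial and leukocyte genes) were computed likewise. The summed CPM in AL against HD rats was 6493 to 7636 against 5420 to 9422 for the outer stripe, 1214 to 1419 against 1138 to 1900 for the erythroid, 20.3 to 52.5 against 24.8 to 64.5 for the urothelial and 26.5 to 79.0 against 16.6 to 28.4 for the leukocyte list.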

Additional observations from a re-analysis of the deposited data

How the results depend on the processing

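With DESeq2, 2 of the 7 genes were called at an adjusted *P* of 0.05 or less, against 0 with edgeR, namely Nfat5 (log2 fold change -0.99) and Slc5a3 (-2.40). At an unadjusted *P* below 0.05, limma on log2(TPM + 0.5) called 3 of the 7 against 5, and leaving out each rat gave 1 to 5 (1 without rat 64, 2 without rat 67 or 88, 3 without rat 61 or 71). The genes of the 5 pathway lists at that threshold numbered 11 of 51 with all rats, where 10.6% of all tested genes passed it, and 2 to 17 with a rat left out (2 without rat 88, 6 without rat 64 or 71, 7 without rat 67, 17 without rat 69), while the count over all genes went from 1224 to 606 without rat 88 and to 1744 without rat 69. Without each rat the log2 fold change of Slc6a6 ran from -0.55 to 0.45 and turned positive 3 times (0.0046 without rat 64, 0.0584 without rat 67, 0.45 without rat 71), and that of UT-A1 ran from -2.03 to 2.12, the latter without rat 88. The other 116 values of the 7 genes and 3 transcripts kept their sign and their side of the adjusted threshold, except that DESeq2 gave UT-A1 no adjusted *P*. Normalization by library size alone moved the median of all genes from 0.0067 to -0.07. No paired analysis was possible because the labels give no pairing of AL rats with HD rats. With 3 rats per group and 16 to 68 counts in 2 HD rats, small differences of Slc14a1 were not detectable.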

Other observations

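Rat 88 and rat 61, both AL, each stood apart in several genes of this pathway, in different ones (chosen after their values were seen). Rat 88 had the highest Akr1b1 and UT-A1. In it Ptgs2, the inducible cyclooxygenase, had 7.61 CPM against 0.250 to 1.27 CPM in the other rats, and S100a4 had 48.6 CPM against 9.29 to 23.7 CPM. In rat 61, which had the highest Slc5a3 and the lowest Slc6a6, the stress-induced transcription factor Atf3 had 91.9 CPM against 10.7 to 39.2 CPM in the other rats. Neither difference follows the diet, and no cause was tested.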
